A study of Mus musculus with 4 samples.

Results

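The genes described here are 10 genes that mark neutrophils: *S100a8*, *S100a9*, *Csf3r*, *Cxcr2*, *Retnlg*, *Ly6g*, *Camp*, *Ngp*, *Trem1* and *Clec4d*. They were taken by symbol from the 25239 gene symbols of the count data. All 10 passed the filter on low counts, among 13919 genes tested. The 4 RNA-Seq libraries were made from the CD4+ T cell isolate of lung tumors, in male C57BL/6 mice aged 8 to 10 weeks. Of these, 2 were labelled WT and 2 CD4/ALK4-KO (CD4CreERT2+/-/Acvr1bfl/fl), called WT-labelled and KO-labelled libraries below. In CD4/ALK4-KO mice, tamoxifen switches on a Cre recombinase driven by the *Cd4* promoter, which deletes floxed *Acvr1b*, the gene of the activin type I receptor ALK4, in cells that express *Cd4*. The text used here does not say whether the WT mice received tamoxifen or whether mice were pooled. All mice had been inoculated intravenously with LLC-OVA cells, derived from Lewis lung carcinoma and carrying ovalbumin, and the sample labels give days 18 to 22 for the removal of the tumors where the methods give days 16 to 20.

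Neutrophils are short-lived granulocytes that leave the bone marrow for the blood and enter inflamed tissue and tumors. They make their granule proteins in successive steps while they mature in the marrow, the azurophil enzymes first and the proteins of the specific granules later, and they gain the chemokine receptor CXCR2 and Ly6G as they mature. Neutrophils express neither the T cell receptor nor CD4. Which cells of the CD4+ T cell isolate the transcripts described here came from was not tested. In bulk RNA such as this, more cells that express a gene and more RNA of the gene per cell cannot be told apart.

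Total counts were between 11823908 and 13943237 per library. Values are given as counts and as CPM, the counts scaled to the TMM-adjusted library size, and group values as mean ± SD with n = 2 libraries. Fold changes compare CD4/ALK4-KO with WT on the log2 scale and come from edgeR's quasi-likelihood test over all genes tested, with Benjamini-Hochberg adjusted p-values and a threshold of 0.05. At this threshold 17.4% of all genes tested were higher and 15.4% lower in KO-labelled libraries, and 66.7% had CPM that did not overlap between the groups. The targeted gene *Acvr1b* had 426 and 342 counts in WT-labelled libraries and 322 and 445 in KO-labelled ones (log2 fold change 0.16, standard error 0.24, adjusted p = 0.66). It did not separate the labelled genotypes, although counts over a whole gene do not single out the deleted exons, so directions are given between libraries as labelled. All 13 tested genes of a T cell identity list, among them *Cd4*, were higher in KO-labelled libraries, at a median of 2.41 on the log2 scale. Scaling to 7 T cell receptor complex genes in place of TMM therefore moved the median of all genes tested from -0.0082 to -2.40, and on that scale all 10 neutrophil genes were lower. Fold changes below are on the TMM scale, and those of the 10 neutrophil genes were all negative on the T cell receptor scale.

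The stretch around the start of 5 of these genes is shown first, from 250 bases before to 50 bases after the start given by RefSeq (build GRCm38.p6), for the S100 pair that gave most of the counts, a granule gene, and the chemokine and growth factor receptors that were called. Capitals mark matches to TTNNGNAA, a pattern of C/EBP factors, or to GAGGAA, the core bound by PU.1, on either strand. No match of one overlapped the other.
S100a8, chr3:90668821-90669120, plus strand: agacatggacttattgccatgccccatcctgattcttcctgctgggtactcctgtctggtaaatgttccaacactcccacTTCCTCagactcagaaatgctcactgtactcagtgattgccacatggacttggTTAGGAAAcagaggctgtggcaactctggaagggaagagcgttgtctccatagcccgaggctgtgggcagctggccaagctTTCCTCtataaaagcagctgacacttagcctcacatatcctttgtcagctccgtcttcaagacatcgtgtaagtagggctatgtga
S100a9, chr3:90695672-90695971, minus strand: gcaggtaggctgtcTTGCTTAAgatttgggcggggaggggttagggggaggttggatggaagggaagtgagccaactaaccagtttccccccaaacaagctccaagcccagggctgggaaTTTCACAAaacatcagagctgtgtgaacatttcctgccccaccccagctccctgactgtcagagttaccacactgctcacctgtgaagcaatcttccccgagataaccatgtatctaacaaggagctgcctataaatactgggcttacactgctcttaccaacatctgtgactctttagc
Ngp, chr9:110419558-110419857, plus strand: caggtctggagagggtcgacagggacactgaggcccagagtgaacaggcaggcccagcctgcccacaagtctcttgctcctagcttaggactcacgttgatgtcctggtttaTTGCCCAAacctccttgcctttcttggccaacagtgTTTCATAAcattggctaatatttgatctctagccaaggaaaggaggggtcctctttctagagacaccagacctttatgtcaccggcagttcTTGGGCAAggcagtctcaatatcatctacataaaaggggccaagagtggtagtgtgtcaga
Cxcr2, chr1:74153744-74154043, plus strand: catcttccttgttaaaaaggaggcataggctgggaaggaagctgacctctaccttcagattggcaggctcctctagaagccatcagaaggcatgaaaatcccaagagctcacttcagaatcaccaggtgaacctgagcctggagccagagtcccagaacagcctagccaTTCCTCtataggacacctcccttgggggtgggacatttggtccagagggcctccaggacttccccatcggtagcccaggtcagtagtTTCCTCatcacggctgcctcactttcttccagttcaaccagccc
Csf3r, chr4:126024409-126024708, plus strand: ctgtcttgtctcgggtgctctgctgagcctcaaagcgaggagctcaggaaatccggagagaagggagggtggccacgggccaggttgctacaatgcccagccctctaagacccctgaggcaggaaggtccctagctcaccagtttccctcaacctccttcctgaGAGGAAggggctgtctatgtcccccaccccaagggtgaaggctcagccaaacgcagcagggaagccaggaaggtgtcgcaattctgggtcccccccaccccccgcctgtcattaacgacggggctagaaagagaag
RefSeq starts matched all 10 genes, with 2 starts for *Ly6g*. TTNNGNAA was present at 7 of the 10 genes and in 40.7% of 32851 promoters of the same length. GAGGAA was present at 6 of the 10 genes and in 28.3% of all promoters. The *S100a8* stretch held 1 match of TTNNGNAA and 2 of GAGGAA, that of *S100a9* held 2 and 0, that of *Ngp* 3 and 0, that of *Cxcr2* 0 and 2, and that of *Csf3r* 0 and 1. A match is a description of these letters and was not tested for binding.

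Transcripts of all 10 genes were present in all 4 libraries. Of the 10 genes, *Csf3r* and *Cxcr2* were higher in KO-labelled libraries and none was lower, against 17.4% and 15.4% of all genes tested. The other 8 did not pass the threshold. In either direction 2 of 10 were called, against 32.8% of all genes tested, and the same 2 were the ones with an unadjusted p below 0.05, against 42.4% of all genes tested. The median log2 fold change of the 10 was 0.42, against -0.0082 over all genes tested. Only *Csf3r* and *Trem1* had CPM that did not overlap between the groups, against 66.7% of all genes tested. Together the 10 genes held 0.116% and 0.166% of all counts in WT-labelled libraries and 0.174% and 0.124% in KO-labelled ones, so that WT replicate 2 and CD4/ALK4-KO replicate 1 were the high libraries of their groups. Monocyte genes had the same order, with 4 of 6 higher in WT replicate 2 and 5 of 6 in CD4/ALK4-KO replicate 1 (66.7% in both, against 31.5% of all genes tested), and held 0.305% and 0.327% of counts against 0.382% and 0.361%. Their part in the values of the neutrophil genes was not tested. The number called higher depended on single libraries. It was 0 without WT replicate 1 and 1 without CD4/ALK4-KO replicate 1, but 6 when CD4/ALK4-KO replicate 2 was left out.

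**Figure D1:**
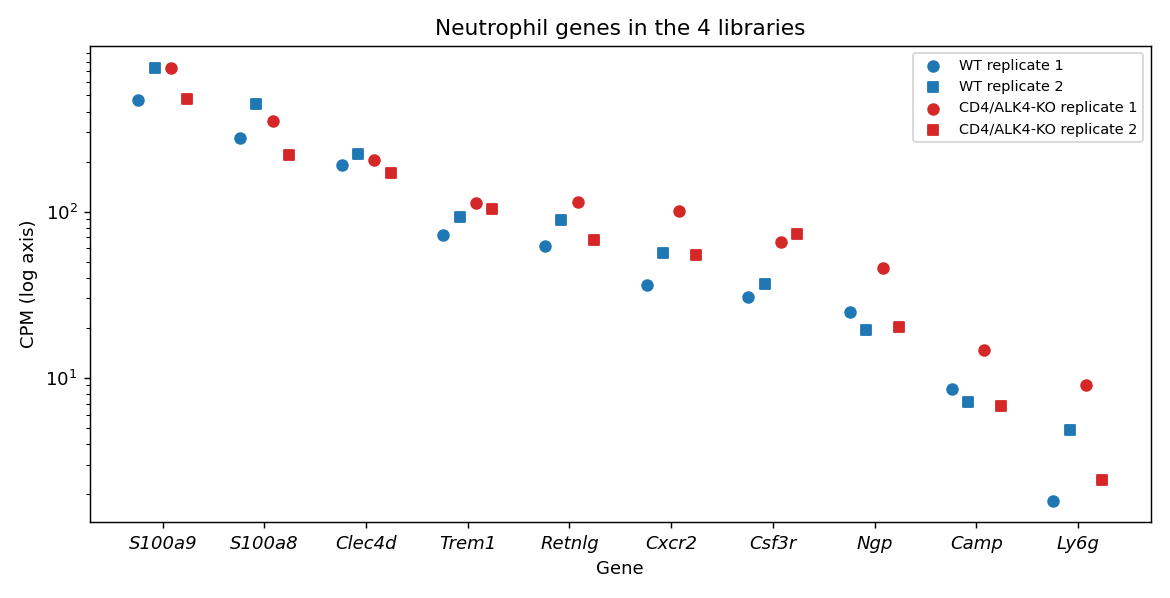
CPM (log axis) of each neutrophil gene in each library, with WT in blue, CD4/ALK4-KO in red, circles for replicate 1 and squares for replicate 2. Levels ran from 735 CPM for *S100a9* to 1.82 CPM for *Ly6g*, both in libraries labelled WT, and only *Csf3r* and *Trem1* had groups that did not overlap.

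Per length of annotated exon, the S100 genes stood far above the rest. In RPKM, which divides CPM by exon length in kilobases, *S100a9* had 1152 ± 363 and *S100a8* 522 ± 170 in WT-labelled libraries. *Clec4d* (129 ± 14.5 RPKM) and *Retnlg* (128 ± 32.5 RPKM) followed and did not differ beyond their spread. *Trem1* (27.6 ± 4.67 RPKM) lay above *Ngp* (18.0 ± 3.11 RPKM), whose spread overlapped that of *Cxcr2* (15.2 ± 4.74 RPKM). *Camp* (10.4 ± 1.28 RPKM) and *Csf3r* (9.30 ± 1.14 RPKM) did not differ beyond their spread, and *Ly6g* was lowest at 3.56 ± 2.29 RPKM. On the same scale *Cd4* had 12.8 ± 1.30 RPKM in WT-labelled libraries and 78.6 ± 3.45 RPKM in KO-labelled ones. In the latter, *S100a9* had 1156 ± 350 RPKM, *S100a8* 409 ± 134 RPKM and *Csf3r* 19.3 ± 1.51 RPKM, above *Camp* at 14.2 ± 7.52 RPKM but within its spread.

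*S100a8* and *S100a9* encode the subunits of calprotectin, a calcium- and metal-binding protein that fills the neutrophil cytosol and is also made by monocytes. Their genes lie close together on chromosome 3 (*S100a8* at 90668978 to 90670035, *S100a9* at 90692632 to 90695721, GRCm38). *S100a8* had 3821 and 6024 counts in WT-labelled libraries and 4165 and 2692 in KO-labelled ones, which is 279 and 445 CPM against 350 and 218 CPM. The highest and the lowest library thus belonged to different groups, and each group had a high and a low library. Its log2 fold change was -0.35 (adjusted p = 0.32, standard error 0.26). *S100a9* had 6402 and 9949 against 8723 and 5858 counts, which is 467 and 735 CPM against 733 and 474 CPM. The group means of *S100a9* were all but equal, at 601 ± 190 CPM and 604 ± 183 CPM, and the log2 fold change 0.0056 had a standard error of 0.25 (adjusted p = 0.99). Without CD4/ALK4-KO replicate 1, *S100a8* was at -0.70, and without WT replicate 2 it was at 0.018. On the T cell receptor scale it was at -2.78.

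The S100 pair kept its proportion within a genotype while both genes moved between replicates. The counts of *S100a8* per count of *S100a9* were 0.597 and 0.605 in WT-labelled libraries and 0.477 and 0.460 in KO-labelled ones, so that the mean in CD4/ALK4-KO was 77.9% of that in WT. This ratio does not depend on the scaling of the libraries. It was singled out after its values were seen, and an exact permutation test of 2 against 2 libraries cannot give a p below 0.333. Of all 45 ratios between 2 of the 10 genes, 18 (40.0%) had groups that did not overlap.

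**Figure D2:**
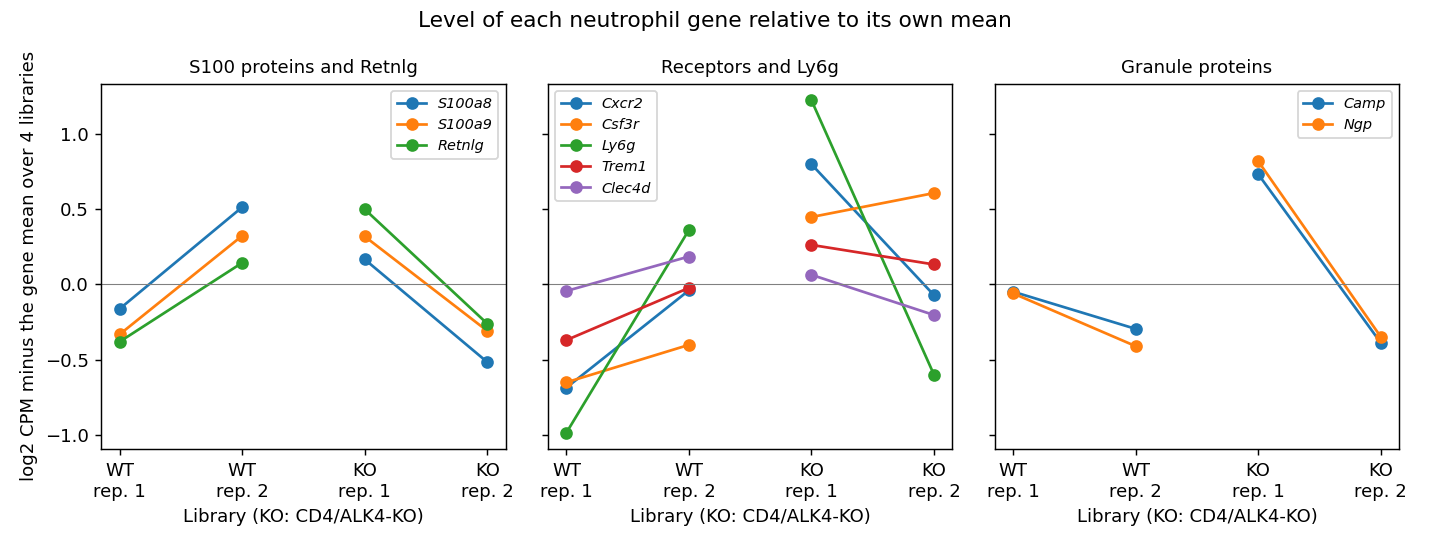
log2 CPM of each gene minus its own mean over the 4 libraries, by library, with lines joining the replicates of a genotype. *S100a8*, *S100a9*, *Retnlg*, *Cxcr2* and *Ly6g* were higher in WT replicate 2 and in CD4/ALK4-KO replicate 1, *Camp* and *Ngp* were higher in WT replicate 1 and in CD4/ALK4-KO replicate 1, and *Csf3r* was higher in each library labelled CD4/ALK4-KO than in each labelled WT (on the T cell receptor scale its log2 fold change was -1.35).

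*Csf3r* (chromosome 4, 126024550 to 126044440, plus strand) encodes the receptor of G-CSF, the growth factor that drives the production of neutrophils. It was the gene of the 10 with the clearest difference between the groups. It had 420 and 493 counts in WT-labelled libraries and 783 and 907 in KO-labelled ones, or 33.5 ± 4.10 CPM against 69.6 ± 5.43 CPM. Both KO-labelled libraries were above both WT-labelled ones, and unlike the other genes *Csf3r* was not lower in CD4/ALK4-KO replicate 2 than in replicate 1. It rose by 1.05 on the log2 scale (standard error 0.22, adjusted p = 0.00087), or 2.08-fold. On the T cell receptor scale it was lower, at -1.35. Without WT replicate 1 it was at 0.93 and no longer past the threshold. Stretches covering 48.0% of the longest *Csf3r* transcript resembled transcripts of 159 other genes (95% identity over 75 bases or more). The longest stretch, of 1518 bases at 96.8% identity, is in AC105061.2, a processed pseudogene on chromosome 19 (60079432 to 60087657). Reads of *Csf3r* may thus be lost or split in the counting, and its level is uncertain. *Csf3*, the gene of G-CSF itself, had 112 and 88 against 84 and 86 counts (log2 fold change -0.066, standard error 0.33, adjusted p = 0.90).

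*Cxcr2* (chromosome 1, 74153989 to 74161246, plus strand) encodes the receptor for the chemokines that call neutrophils out of the marrow and into tissue. It had 493 and 763 counts in WT-labelled libraries and 1201 and 681 in KO-labelled ones, or 36.0 and 56.4 CPM against 101 and 55.2 CPM. CD4/ALK4-KO replicate 1 was high, whereas CD4/ALK4-KO replicate 2 and WT replicate 2 were at nearly the same level. The log2 fold change was 0.76 (adjusted p = 0.043, standard error 0.28), on the higher side of the threshold by a small margin. It was at 0.29 (adjusted p = 0.33) without CD4/ALK4-KO replicate 1 and at 0.46 (adjusted p = 0.45) without WT replicate 1. It was at 0.69 (adjusted p = 0.054) with upper quartile scaling, 0.88 (adjusted p = 0.096) scaled to macrophage genes and -1.67 when scaled to T cell receptor genes. Of its adjusted p-values over the alternatives, the smallest (9.4e-09) belonged to the T cell receptor scale, on which *Cxcr2* was lower. Stretches covering 7.03% of the longest *Cxcr2* transcript resembled transcripts of 115 other genes, so some of its reads may also be lost or split. The neighbouring receptor gene *Cxcr1* was sparse, with 23 and 57 against 67 and 31 counts (log2 fold change 0.46, adjusted p = 0.52).

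*Ly6g* encodes the surface protein by which mouse neutrophils are sorted, and *Retnlg* a secreted protein of the resistin family. *Ly6g* (chromosome 15, 75155240 to 75159126) was the least abundant of the 10. It had 25 and 66 counts in WT-labelled libraries and 107 and 30 in KO-labelled ones. WT replicate 2 exceeded WT replicate 1 by a factor of 2.67 in CPM (95% interval 1.66 to 4.42, exact binomial, counting error only), and CD4/ALK4-KO replicate 1 exceeded replicate 2 by a factor of 3.70 (2.45 to 5.75). Its log2 fold change of 0.77 (adjusted p = 0.36, standard error 0.59) was within this spread, with extremes of -0.43 (CD4/ALK4-KO replicate 1 left out) and 1.63 (WT replicate 2 left out). *Retnlg* (chromosome 16, 48872621 to 48874496) had 851 and 1209 against 1361 and 833 counts. The replicates again differed in the same order, by factors of 1.44 (1.32 to 1.57) for WT and 1.69 (1.55 to 1.85) for CD4/ALK4-KO, and the log2 fold change was 0.26 (adjusted p = 0.46, standard error 0.25). Without CD4/ALK4-KO replicate 2, *Ly6g* was at 1.42 and *Retnlg* at 0.59. On the T cell receptor scale *Ly6g* was lower at -1.67 and *Retnlg* at -2.15.

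*Camp* encodes the cathelicidin antimicrobial peptide and *Ngp* the neutrophilic granule protein, both packed into specific granules during maturation in the marrow. The genes lie on chromosome 9 (*Camp* at 109847379 to 109849617, minus strand, and *Ngp* at 110419747 to 110423012, plus strand). *Camp* had 117 and 97 counts in WT-labelled libraries and 176 and 83 in KO-labelled ones. *Ngp* had 339 and 262 against 543 and 250 counts. For both genes CD4/ALK4-KO replicate 1 was the highest library, by factors of 2.20 (1.68 to 2.89) for *Camp* and 2.25 (1.94 to 2.63) for *Ngp* over CD4/ALK4-KO replicate 2, which was below both WT libraries for *Camp* and between them for *Ngp*. Within WT the order differed from that of *Ly6g* and *Cxcr2*. *Ngp* in WT replicate 2 was 0.783 (0.664 to 0.923) of that in replicate 1, and for *Camp* the factor of 0.840 (0.635 to 1.11) was within the counting error. The log2 fold changes were 0.45 (standard error 0.35, adjusted p = 0.34) for *Camp* and 0.58 (standard error 0.31, adjusted p = 0.17) for *Ngp*, and without CD4/ALK4-KO replicate 1 they were -0.19 and -0.093. Without CD4/ALK4-KO replicate 2, *Camp* was at 0.91 and *Ngp* at 1.04. On the T cell receptor scale *Camp* was lower at -1.93 and *Ngp* at -1.80.

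*Trem1* encodes a receptor that amplifies inflammatory signals through the adaptor DAP12, and *Clec4d* the C-type lectin receptor MCL, which signals through the Fc receptor gamma chain. Both are also expressed by monocytes and macrophages. *Trem1* (chromosome 17, 48232768 to 48246924) had 997 and 1252 counts in WT-labelled libraries and 1343 and 1273 in KO-labelled ones, or 82.7 ± 14.0 CPM against 108 ± 6.87 CPM. The groups did not overlap, but the log2 fold change of 0.39 (adjusted p = 0.18, standard error 0.21) did not pass the threshold. *Clec4d* (chromosome 6, 123262111 to 123275265) gave 2608 and 3017 counts in WT-labelled libraries and 2440 and 2103 in KO-labelled ones, at 207 ± 23.1 CPM against 188 ± 24.5 CPM. Its groups overlapped, and the log2 fold change was -0.14 (adjusted p = 0.67, standard error 0.22). The replicates of *Trem1* differed by factors of 1.27 (WT) and 1.09 (CD4/ALK4-KO), and those of *Clec4d* by 1.17 and 1.20.

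**Figure D3:**
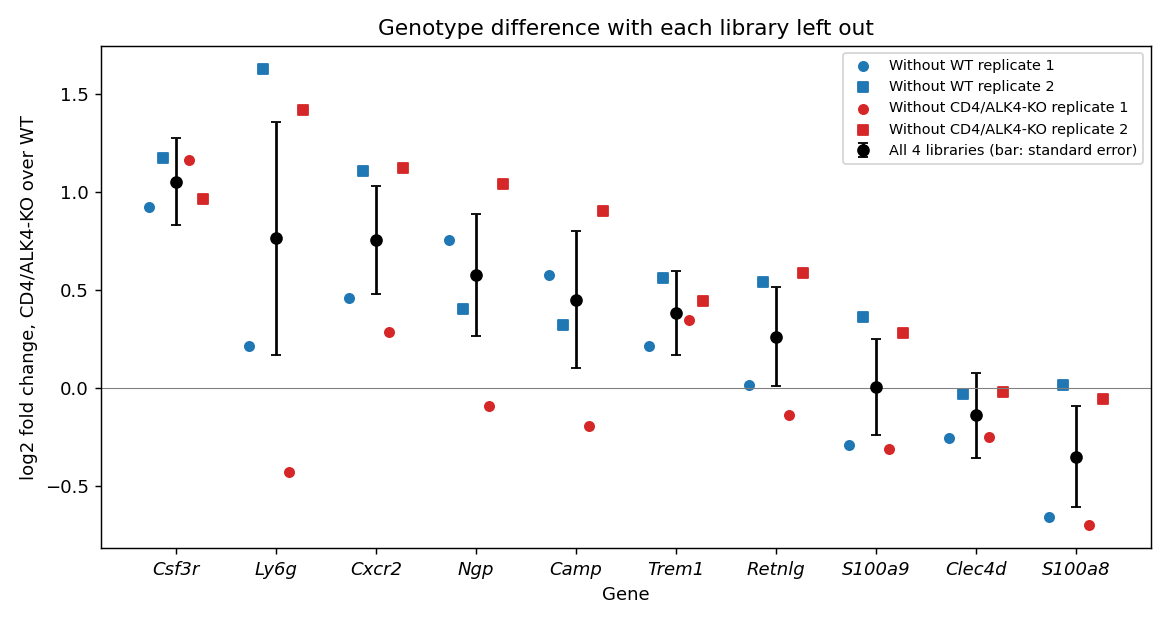
log2 fold change of CD4/ALK4-KO over WT (TMM scale) for each gene from all 4 libraries (black, bars are standard errors) and with each library left out (blue and red). *Csf3r* stayed between 0.93 and 1.18, whereas *Ly6g* ran from -0.43 to 1.63. All 10 genes were below 0 on the T cell receptor scale.

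Ratios between the genes were taken within each library, where scaling has no part. *Cxcr2* per count of *S100a9* was 0.0770 and 0.0767 in WT-labelled libraries and 0.138 and 0.116 in KO-labelled ones. *Trem1* per count of *Clec4d* was 0.382 and 0.415 against 0.550 and 0.605. In both ratios the groups did not overlap. *Retnlg* per count of *S100a9* was 0.133 and 0.122 against 0.156 and 0.142, likewise without overlap but with a smaller gap. *Camp* per count of *Ngp*, 0.345 and 0.370 against 0.324 and 0.332, was lower in KO-labelled libraries by a small gap. *Ngp* per count of *S100a9* (0.0530 and 0.0263 against 0.0622 and 0.0427), *Ly6g* per count of *Cxcr2* (0.0507 and 0.0865 against 0.0891 and 0.0441) and *Csf3r* per count of *Cxcr2* (0.852 and 0.646 against 0.652 and 1.33) overlapped between the groups. These pairs were chosen after the values were seen and carry no test.

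**Figure D4:**
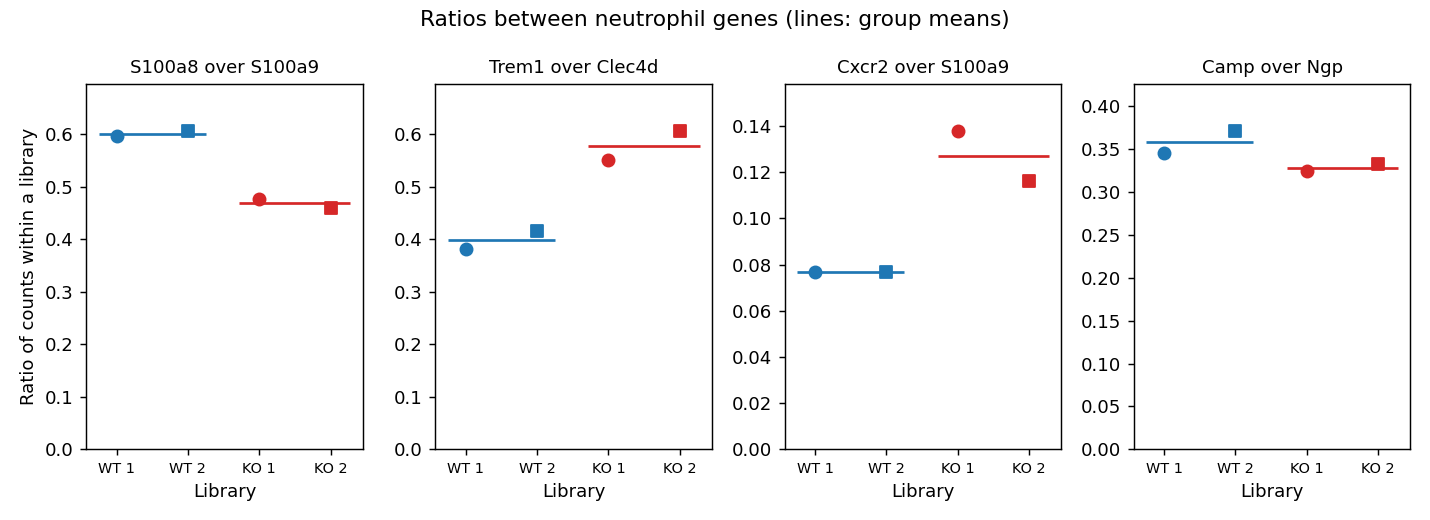
Ratios of counts between genes in each library (WT in blue, CD4/ALK4-KO in red, lines are group means, axes start at 0). *S100a8* over *S100a9* was near 0.601 in WT and 0.469 in CD4/ALK4-KO, *Trem1* over *Clec4d* and *Cxcr2* over *S100a9* were higher in CD4/ALK4-KO, and *Camp* over *Ngp* stayed between 0.324 and 0.370.

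The order of replicates was also taken for other neutrophil genes. Of 25 tested genes of mature neutrophils 6 are among the 10 genes above. Of the 19 others, 15 (78.9%) were higher in WT replicate 2 than in WT replicate 1, against 49.6% of all genes tested. Only 11 of the 19 (57.9%) were higher in CD4/ALK4-KO replicate 1 than in replicate 2, near the 48.9% of all genes tested, and 8 went the other way. The 6 tested genes of the primary granules had the opposite order within WT. All 6 were higher in WT replicate 1 than in WT replicate 2, and all 6 were higher in CD4/ALK4-KO replicate 1. *Mpo*, the myeloperoxidase gene, had 30 and 17 counts in WT-labelled libraries and 70 and 12 in KO-labelled ones, and *Elane*, the neutrophil elastase gene, 27 and 9 against 27 and 6. *Ctsg*, the cathepsin G gene, had 55 and 23 against 43 and 14 counts. The primary granule transcripts were rare in every library, except for *Prtn3*, with 141 and 91 against 108 and 79 counts, and *Serpinb1a*, an inhibitor of these enzymes, with 1043 and 984 against 1006 and 779. Of 11 tested genes of secondary and tertiary granules other than *Camp* and *Ngp*, 7 were higher in WT replicate 1 and 8 were higher in CD4/ALK4-KO replicate 1. The orders of replicates were noticed in these data and carry no test.

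Between the genotypes, none of the 6 primary granule genes passed the threshold, with a median log2 fold change of -0.075. Of 13 tested secondary and tertiary granule genes 2 were higher and 1 lower (median 0.42), against 17.4% and 15.4% of all genes tested. *Ltf*, the lactoferrin gene, rose from 411 and 207 to 655 and 408 counts (log2 fold change 0.96, standard error 0.31, adjusted p = 0.023), and *Cd177*, which encodes a neutrophil surface protein, from 124 and 96 to 245 and 151 (1.02, standard error 0.31, adjusted p = 0.015). *Chil3*, which alveolar macrophages also express, was the gene that fell, by 0.83 on the log2 scale (adjusted p = 0.0075), while *Arg1* at -0.44 (adjusted p = 0.14), the iron-scavenging *Lcn2* at -0.35 (adjusted p = 0.31) and the haptoglobin gene *Hp* at 0.0063 (adjusted p = 0.99) did not pass. The collagenase gene *Mmp8* showed how far replicates could differ, with 675 and 1123 against 1548 and 575 counts (log2 fold change 0.42, standard error 0.63). Of 25 tested mature neutrophil genes 5 were higher and 1 lower (median 0.26), against 17.4% and 15.4% of all genes tested. Besides *Csf3r* and *Cxcr2*, *Sorl1* (1.93), *Mxd1* (1.48) and *Acod1* (0.65) rose and *Wfdc21* fell by 0.94 on the log2 scale. All 13 T cell identity genes rose as well (median 2.41). The source cells of the *Sorl1*, *Mxd1* and *Acod1* transcripts were not tested. *Slpi*, an abundant protease inhibitor also made by airway epithelium, had 16205 and 6140 against 4557 and 4270 counts (log2 fold change -1.17, adjusted p = 0.077), and *Il1b* 5679 and 6982 against 6869 and 9257 (0.51, adjusted p = 0.078). Without CD4/ALK4-KO replicate 2, 1 primary granule gene, 5 secondary and tertiary granule genes and 10 mature neutrophil genes were called higher, against 0, 1 and 2 without WT replicate 1, 0, 0 and 4 without WT replicate 2 and 0, 1 and 5 without CD4/ALK4-KO replicate 1. The number called lower in these 3 lists was 0 in the first, 0 to 3 in the second and 1 to 4 in the last. On the T cell receptor scale no gene of these 3 lists was called higher.

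Genes around the receptors were read in the same way. Of 8 tested ligand genes 2 were higher and 2 lower (median -0.12), against 17.4% and 15.4% of all genes tested. Among the ligands of CXCR2, *Cxcl1* fell by 0.67 (adjusted p = 0.018) and *Ppbp* by 0.71 (adjusted p = 0.020) on the log2 scale, *Cxcl3* rose by 0.60 (adjusted p = 0.030), and *Cxcl2* at 0.17 (adjusted p = 0.60) and *Cxcl5* at -0.18 (adjusted p = 0.72) did not pass. *Il17a*, a T cell cytokine that raises the output of neutrophils, had 45 and 85 against 254 and 124 counts (log2 fold change 1.71, adjusted p = 0.0017). In the list of TREM1 and CLEC4D signalling, which holds *Trem1* and *Clec4d*, 3 of 12 genes were higher and none lower (median 0.34). These were *Malt1* (1.88), *Syk* (1.19) and *Treml2* (2.49), which lymphocytes also express. The adaptor genes *Tyrobp* at -0.22 (adjusted p = 0.51) and *Fcer1g* at -0.21 (adjusted p = 0.49), and *Clec4e*, the partner of *Clec4d*, at 0.17 (adjusted p = 0.66), did not pass. Without WT replicate 1 or WT replicate 2, 1 ligand gene was called higher and 0 lower, and 3 were lower without CD4/ALK4-KO replicate 1. On the T cell receptor scale no gene of either list was called higher.

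The other S100 genes listed here, *S100a4*, *S100a6*, *S100a10* and *S100a11*, were lower in KO-labelled libraries. Of 11 genes in the list of S100 receptors and partners, which holds the S100 pair, 6 were lower and none higher (median -0.68). Over all genes tested 15.4% were lower and 17.4% higher. *S100a4*, with 24559 and 23174 against 3843 and 6780 counts, fell by 2.01 on the log2 scale (standard error 0.24, adjusted p = 1.3e-06) and *S100a6* by 1.75 (standard error 0.24, adjusted p = 7.0e-06). Both are expressed widely, in tumor and stromal cells as well as leukocytes. *S100a10* fell by 0.79 and *S100a11* by 0.81, as did *Bsg* by 0.81 and *Cd36* by 0.68, whereas *Tlr4*, the gene of a receptor of calprotectin, was at -0.34 (adjusted p = 0.24). Of this list 2 genes were called lower when scaled to macrophage genes, and fewer than 6 with either WT replicate left out. The difference between these fold changes and those of the S100 pair was not tested. Of 6 transcription factor genes of the neutrophil lineage, *Gfi1* was called higher and none was called lower (median of the list -0.31). *Gfi1* was at 1.62 (adjusted p = 0.0048), from 35 and 25 to 88 and 76 counts, and its source cells were not tested. *Cebpb* at -1.28 (1498 and 1334 against 278 and 770 counts, adjusted p = 0.052), *Cebpd* at -0.55 (adjusted p = 0.063), *Cebpa* at -0.44 (adjusted p = 0.21) and *Spi1* at 0.013 (adjusted p = 0.97) did not pass, and *Cebpe*, which drives specific granule genes, was close to absent with 5 to 11 counts per library. Without WT replicate 2 no transcription factor gene was called higher. Of this list 1 gene was called lower with upper quartile scaling, macrophage scaling, no filter, the replicate block, the likelihood ratio test or either WT replicate left out, and 2 genes with either CD4/ALK4-KO replicate left out or the crossed block. On the T cell receptor scale none of these genes was called higher.

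Markers of other cells were present beside the neutrophil genes. The 9 macrophage genes held 0.127% to 0.188% of all counts and the 6 monocyte genes 0.305% to 0.382%, against 0.116% to 0.174% for the 10 neutrophil genes. The 13 T cell identity genes held 0.0443% to 0.0504% in WT-labelled libraries and 0.264% to 0.273% in KO-labelled ones. Of the macrophage genes 1 was higher (*Csf1r*, median of the list -0.42), with *Mrc1* at -0.42 and *C1qb* at -0.46, and among the monocyte genes *Ccr2* and *Ly6c2* were higher (median of the list 0.36), with *Fn1* at 0.086 and *Vcan* at -0.49. All 6 B cell genes were higher (median 2.47), among them *Ms4a1* (2.16) and *Cd79b* (1.69), and of the T cell genes *Cd3g* was at 2.16 and *Lck* at 2.84. Of 8 alveolar macrophage genes 1 was higher and 2 lower (median -0.14), with *Marco* at -0.37 and *Fabp4* lower at -1.13. Of 7 lung epithelial genes 1 was higher and 5 lower (median -0.73), among them *Scgb1a1* at -0.73 and *Krt18* at -1.12. Their part in the values of the neutrophil genes was not tested.

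**Figure D5:**
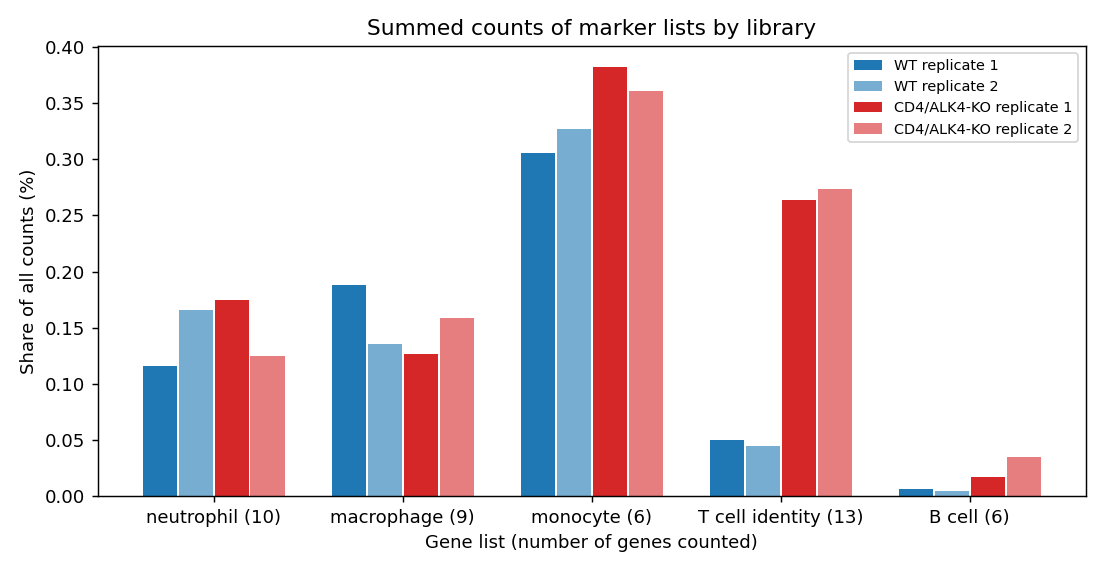
Share of all counts (%) held by the neutrophil genes and by 4 lists of marker genes in each library (bars start at 0). The neutrophil share was higher in WT replicate 2 (0.166%) and CD4/ALK4-KO replicate 1 (0.174%) than in WT replicate 1 (0.116%) and CD4/ALK4-KO replicate 2 (0.124%), while the T cell share separated the labelled genotypes.

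Set against other cells of the same library, the neutrophil genes separated the groups against T cell genes, and not against macrophage or monocyte genes. The separation against T cell genes is not particular to them, since all 13 T cell identity genes were higher in KO-labelled libraries. Scaled to 7 T cell receptor complex genes, the median log2 fold change of all genes tested was -2.40. The mean log2 CPM of the 10 genes minus that of the T cell identity genes was 0.47 and 1.10 in WT-labelled libraries and -0.94 and -1.73 in KO-labelled ones, a difference of -2.12 between the group means. Against macrophage genes it was -1.69 and -0.95 in WT and -0.38 and -1.32 in CD4/ALK4-KO, so the groups overlapped. Against monocyte genes it was -2.89 and -2.79 in WT and -2.71 and -3.15 in CD4/ALK4-KO, again with overlap. An exact permutation test of 2 against 2 libraries cannot go below 0.333, and none was made.

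The genes whose 4 values lay nearest to the median profile of the 10 genes were sought among the 10460 genes whose mean was 100 counts or more, by the Euclidean distance of log2 CPM centred on each gene's mean. They were *Appl1* (distance 0.083), *Etaa1* (0.096), *Prorsd1* (0.11), *Cpne8* (0.12) and *Slc35g1* (0.12). *Appl1* had 109 and 143 CPM in WT-labelled libraries and 186 and 117 CPM in KO-labelled ones, the same order of libraries as *Cxcr2*. Of the 10 genes, *Retnlg* was nearest to their median profile (distance 0.095) and *Ly6g* (1.07) and *Csf3r* (1.05) were the farthest from it. With 4 libraries many genes share an order, and the likeness is a description.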

How the data were processed

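The RNA-Seq data cover CD4+ T cell isolates of lung tumors, from WT (2 libraries) and CD4/ALK4-KO mice (2 libraries). Reads of 75 bases, sequenced from a single end, were mapped by the authors with HISAT2 (genome mm10). Their deposited values are raw counts per gene symbol from htseq-count in its intersection-nonempty mode, with no normalization. The strand option, the annotation and the versions are not given in the sources used here. Total counts were 13869889 and 13943237 (WT) and 11959487 and 11823908 (CD4/ALK4-KO). The design text calls the samples biological replicates and does not give the mice behind each, so p-values cover the spread between these samples. The chi-square per degree of freedom between replicates was 16.0 (WT) and 28.7 (CD4/ALK4-KO), so each was kept as a sample.

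From the counts, edgeR 4.0.16 in R 4.3.3 was used with filterByExpr, TMM and robust quasi-likelihood fitting (genotype alone in the model), checked on simulated counts. Standard errors were derived from each log2 fold change and its F statistic. RPKM was computed from CPM and the merged exon length of GENCODE M21 (GRCm38). Likeness to other genes was searched with BLAST at 95% identity over 75 bases. Mean log2 CPM used a prior count of 2. The neutrophil genes and the gene lists were chosen with earlier results of these data known. The genes named are the 10, the 4 of each related list and the 2 of each marker list with the highest mean counts, and the 5 nearest profiles. Other list genes were named after their values were seen. The alternatives were other scalings (DESeq2's size factors, upper quartile, T cell receptor complex genes, macrophage genes), other filters (none, or at least 10 counts in every library), a replicate block, DESeq2 1.42.0, edgeR's likelihood ratio test and each library left out.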

Additional observations from a re-analysis of the deposited data

How the results depend on the processing

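With TMM the fit called 2 of the 10 neutrophil genes higher and 0 lower. The counts were 1 higher with upper quartile scaling, with scaling to macrophage genes (which moved the median of all genes tested to 0.12) and with the replicate number as a block, and 0 higher and 10 lower with scaling to T cell receptor complex genes. Leaving out single libraries, 0 to 6 genes were called higher and 0 to 1 lower. There the remaining library of a group is assumed to vary like the other group. DESeq2's size factors, its Wald test, the likelihood ratio test and both filters called 2 higher and 0 lower.

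Scaling to T cell receptor complex genes reversed *S100a9* (-2.42), *Csf3r* (-1.35), *Cxcr2* (-1.67), *Retnlg* (-2.15), *Ly6g* (-1.67), *Camp* (-1.93), *Ngp* (-1.80) and *Trem1* (-2.02), by construction, since the T cell genes rose. With upper quartile scaling *S100a9* was at -0.062. With a library left out, the ranges that crossed 0 were -0.31 to 0.36 for *S100a9*, -0.70 to 0.018 for *S100a8*, -0.14 to 0.59 for *Retnlg*, -0.43 to 1.63 for *Ly6g*, -0.19 to 0.91 for *Camp* and -0.093 to 1.04 for *Ngp*. With T cell receptor scaling 25 of all genes tested were called higher and 13024 lower, and with macrophage scaling 2113 and 961, against 2422 and 2140. With a library left out, 1103 to 2923 of all genes tested were higher and 754 to 2618 lower.

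The shared replicate numbers gave no sign of pairing, as same-numbered deviations had a correlation of -0.21 across 13919 genes. With 2 libraries per group this correlation cannot settle whether the samples were paired. With the replicate block *Cxcr2* was at 0.73 (adjusted p = 0.067), and 1768 of all genes tested were higher and 1444 lower. With crossed numbers, chosen after seeing the data, 3 of the 10 genes were called higher and 0 lower, and 3118 of all genes tested were higher and 3037 lower. The level relative to monocyte genes differed by -0.089 between the groups as a mean over genes and by 0.11 as a median. Counts as low as those of *Ly6g* limit what a fold change can show.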

Other observations

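Some neutrophil genes were too sparse to be tested. The stefin genes *Stfa2* (WT 10 and 9 counts, CD4/ALK4-KO 16 and 4) and *Stfa3* (9 and 19 against 7 and 7) did not pass the filter, and *Stfa1* (10 and 21 against 24 and 9) did. The related *Stfa2l1* was more abundant, with 96 and 185 against 83 and 92 counts. The stefin genes are close copies of each other, so their counts are uncertain. The Mas-related receptor genes *Mrgpra2a* (1 to 3 counts) and *Mrgpra2b* (5 to 24 counts) were close to absent. These genes were named after their values were seen.

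Markers of other granulocytes were few. *Epx*, the eosinophil peroxidase gene, had 0 to 2 counts per library and the basophil protease gene *Mcpt8* had 15 to 46. Of 8 tested genes of eosinophils and basophils 1 was higher and 1 lower (median 0.41), against 17.4% and 15.4% of all genes tested. By edgeR *Ccr3* was higher (log2 fold change 1.07, adjusted p = 0.023) and *Gata2* lower (-1.66, adjusted p = 0.00077). *Cpa3*, a mast cell and basophil protease gene, had 116 and 228 against 265 and 165 counts, which is the order of libraries seen for *Ly6g* and *Cxcr2*.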
